A study of Mus musculus with 9 samples.

Results

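The promoters of 468 long intergenic RNA (lincRNA) genes were examined for chromatin accessibility in mouse fibroblasts on their way to induced pluripotent stem cells. They were selected from the 1232 genes that GENCODE, on the mouse genome mm9, classes as lincRNA on chromosomes 1 to 19: the transcription start site (TSS) had to lie more than 5 kb from the TSS of every transcript of a protein-coding gene. The selection used position and gene class and no accessibility value. Each promoter was a window of 1 kb on either side of the TSS, and was called open in a library when a called peak overlapped the window. The remaining 764 lincRNA genes, 21418 protein-coding genes and all 34653 genes of these chromosomes, treated in the same way, served for comparison. The nearest protein-coding TSS lay between 5039 and 1720622 bp away (median 27263 bp), and 136 of the 468 TSSs fell inside the body of a protein-coding gene. The genes had a median length of 9099 bp and a median of 3 exons. Most had only a systematic name (434 symbols of the Gm or Rik type). RefSeq gave a current symbol for 233 of them, which was a different one for 39, and classed 14 of the 233 as protein-coding. Windows overlapped for 12 of the genes, so that the 468 windows formed 462 separate stretches.

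A lincRNA is transcribed by RNA polymerase II from a promoter of its own, is usually spliced, and does not code for a protein. Many are made in few cell types, and some act on nearby genes, serve as host transcripts from which small nucleolar RNAs (snoRNAs) or microRNAs are cut, or hold pluripotent cells in their state. A promoter in use is commonly free of nucleosomes. ATAC-Seq detects such stretches, since the Tn5 transposase inserts sequencing adaptors where DNA is exposed. An open promoter is therefore a place the enzyme could reach, and the amount of RNA made from it was not measured here.

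Mouse embryonic fibroblasts carrying a GFP reporter at Oct4 received retroviruses (pMXs) for Oct4, Sox2, Klf4 and c-Myc. The time course held fibroblasts at day 0 (D0), cells at D3, for which no sort is given, Thy-1-negative cells at D6 and D9 (D6T− and D9T−), SSEA-1-positive cells at D12 and D16 (D12S+ and D16S+) and iPSCs. A further pair of libraries came from day 6 cells, labelled as Thy-1-negative, that had received siRNA against the histone variant H3.3 (D6 siH3.3) or a non-targeting siRNA (D6 siNT) before infection. H3.3 itself was not measured in these files, so the depletion was not checked here. All 9 conditions had 1 library each, so that no comparison below has a replicate check and no p-value is given. A bulk library cannot separate a promoter open in few cells from one weakly open in all. The files held 13213117 (D9T−) to 31714845 (D0) tags and 39680 (D9T−) to 154574 (D6T−) summits. The level of a window was the highest pileup (tags of 200 bp that cover a summit) of an overlapping peak, divided by the total tags of the library and multiplied by 1000000 (CPM). The lowest level called in a library ran from 0.331 CPM at D3 to 0.530 CPM at D9T−, and weaker openings were not detectable at this depth. As a check of the labels, the windows of the pluripotency genes Nanog and Zfp42 were closed from D0 to D9T− and open at D12S+, D16S+ and in iPSCs. Dppa4, also a pluripotency gene, was open at D16S+ and in iPSCs and had no call at D12S+. Twist2, a mesenchymal regulator, was open at D0, D3 and D6T− and closed in every later library of the time course. The windows of the fibroblast genes Thy1 and Col1a1 had a peak in iPSCs too (0.489 and 1.02 CPM), Col1a2 had no call at D0 and calls at D3 (1.52 CPM), D6T−, D12S+ and D16S+ (0.850 CPM), and the window of Pou5f1 was open in all 9 libraries, D0 included (13.1 CPM). Pou5f1 encodes Oct4, and reads of the retroviral Oct4 were not separated from those of the gene itself. The level at Pou5f1 is therefore not read as a state of the gene.

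Sequences of 5 of the promoters are given here as examples of the behaviours described below. Their motifs are not put forward as typical of those behaviours. All are 300 bases of mm9 (NCBIM37), written 5′ to 3′ on the strand of the gene. They run from 250 bases before the TSS to its first 50 bases, except for Mir205hg, where the 300 bases are centred on the D16S+ summit. Capitals mark matches to 4 motifs searched on both strands: the AP-1 site TGANTCA, the Oct4 octamer ATGCAAAT, the GC box GGGCGG and the E-box CACGTG. Snhg5 (chr9:88417672-88417971, minus strand) and Oip5os1, named 1700020I14Rik in the annotation (chr2:119419783-119420082, plus strand), were open throughout. Gm6634 (chr3:70611164-70611463, minus strand) was open early. Mir205hg, annotated as 4631405K08Rik (chr1:195336286-195336585, minus strand), and C330002G04Rik (chr19:23150294-23150593, minus strand) opened late.
Snhg5: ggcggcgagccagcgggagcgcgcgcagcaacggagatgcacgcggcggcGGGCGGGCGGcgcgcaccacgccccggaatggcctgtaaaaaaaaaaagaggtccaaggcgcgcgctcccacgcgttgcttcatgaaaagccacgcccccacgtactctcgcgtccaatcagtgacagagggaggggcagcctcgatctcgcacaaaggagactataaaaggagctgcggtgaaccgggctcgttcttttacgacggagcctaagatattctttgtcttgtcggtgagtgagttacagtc
Oip5os1: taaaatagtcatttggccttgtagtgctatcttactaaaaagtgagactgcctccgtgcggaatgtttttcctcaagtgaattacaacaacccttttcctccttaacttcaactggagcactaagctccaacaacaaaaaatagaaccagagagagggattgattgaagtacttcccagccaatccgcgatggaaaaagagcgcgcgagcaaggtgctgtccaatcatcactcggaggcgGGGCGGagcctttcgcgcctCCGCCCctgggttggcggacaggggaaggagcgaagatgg
Gm6634: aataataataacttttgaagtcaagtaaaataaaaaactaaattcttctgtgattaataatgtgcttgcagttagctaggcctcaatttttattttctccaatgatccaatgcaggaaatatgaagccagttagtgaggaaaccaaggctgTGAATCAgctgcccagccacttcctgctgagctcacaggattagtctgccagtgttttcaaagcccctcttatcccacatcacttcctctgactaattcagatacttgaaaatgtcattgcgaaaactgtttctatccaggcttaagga
Mir205hg: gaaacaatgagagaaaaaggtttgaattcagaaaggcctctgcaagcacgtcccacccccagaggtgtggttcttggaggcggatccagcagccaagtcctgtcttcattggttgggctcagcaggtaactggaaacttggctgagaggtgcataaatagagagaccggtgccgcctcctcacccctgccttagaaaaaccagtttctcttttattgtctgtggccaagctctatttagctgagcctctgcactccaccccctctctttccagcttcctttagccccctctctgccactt
C330002G04Rik: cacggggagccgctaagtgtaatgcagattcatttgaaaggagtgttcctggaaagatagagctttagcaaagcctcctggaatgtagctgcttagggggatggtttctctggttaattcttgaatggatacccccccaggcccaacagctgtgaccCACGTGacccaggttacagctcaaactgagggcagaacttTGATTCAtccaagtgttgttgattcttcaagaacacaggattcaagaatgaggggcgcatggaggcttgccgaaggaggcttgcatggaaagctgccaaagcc
The Snhg5 stretch held 34 CpG dinucleotides and overlapping GC boxes, and that of Oip5os1 held 15 CpGs and a GC box on each strand. Gm6634 held 1 CpG and an AP-1 site. C330002G04Rik held 5 CpGs, an AP-1 site and an E-box. No match to the 4 motifs was found in the stretch of Mir205hg.

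More lincRNA promoters were open at the end of the time course than at its start. At D0, 172 of 468 were open (36.8%, 95% Wilson interval 32.5 to 41.2), beside 39.9% of all genes. At D3 the count was 233 (49.8%, against 49.4% of all genes), and D6T− had the most, 251 (53.6%, 49.1 to 58.1, against 49.2% of all genes). It stood at 147 at D9T− (31.4%, against 34.4% of all genes), the library with the fewest tags. The late libraries lay close together, with 223 open at D12S+ (47.6%, against 44.2% of all genes), 228 open at D16S+ (48.7%, against 44.4%) and 237 open in iPSCs (50.6%, 46.1 to 55.1, against 45.8%). These intervals, as all Wilson intervals below, cover the sampling of windows only. The lincRNA promoters had a lower share than all genes at D0 and D9T− and a higher one in the other libraries of the time course, but the share of all genes lay outside the interval in iPSCs alone, and this order was not kept with equal numbers of summits. Of protein-coding windows 54.6% were open at D0 and 62.6% in iPSCs. The other lincRNA genes, nearer to protein-coding TSSs, were open far more often, from 65.1% (D9T−) to 87.6% (D3).

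**Figure D1:**
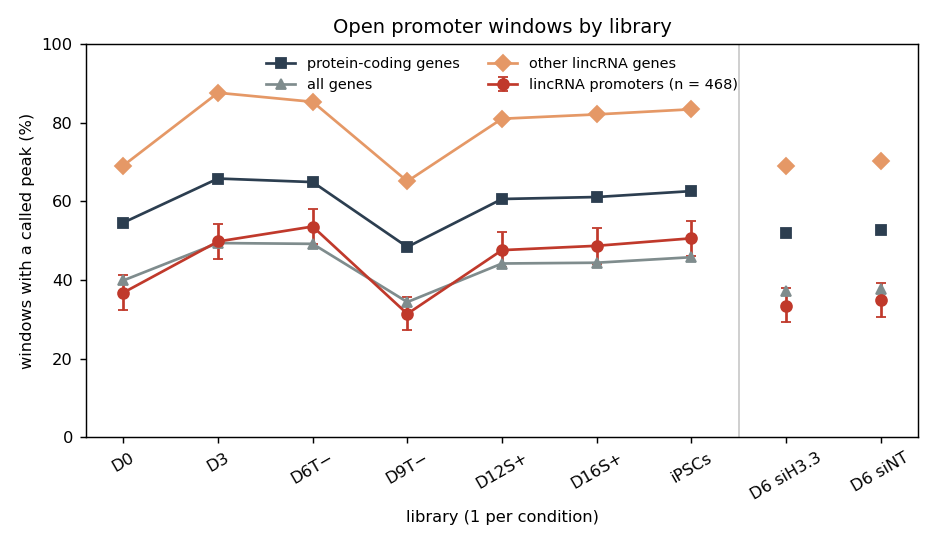
Share of promoter windows with a called peak (%, vertical axis) in each library (horizontal axis), for 468 lincRNA promoters (bars: 95% Wilson intervals), protein-coding genes, all genes and the other lincRNA genes. The lincRNA promoters run from 36.8% at D0 to 50.6% in iPSCs, and each group has its lowest share at D9T−.

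The middle of this course depended on how the libraries were made comparable. With 39680 of the strongest summits kept in each library, as many as D9T− had, 116 lincRNA promoters were open at D0 (24.8%, 21.1 to 28.9, against 29.6% of all genes), 141 at D3 (30.1%, 26.1 to 34.4, against 36.8%), 145 at D6T− (31.0%, upper bound 35.3, against 35.4%) and 147 at D9T− (31.4%, against 34.4%). D12S+ had 175 (37.4%, 33.1 to 41.9, against 39.1%), D16S+ 190 (40.6%, against 40.4%) and iPSCs 187 (40.0%, 35.6 to 44.5, against 39.2%). The peak at D6T− and the dip at D9T− were absent on this count, while D0 was again below iPSCs. The order against all genes turned at D3, D6T− and D12S+, where lincRNA promoters now had the lower share, and all genes lay outside the interval at D0, D3 and D6T− and inside it in iPSCs. Protein-coding genes went from 41.6% at D0 to 54.7% in iPSCs on the same count. D0 had the most tags of all libraries but the lowest median level of open coding windows (0.820 CPM). Whether a weaker signal in the D0 library lowered its calls was not tested. Taking only summits at most 250 bp from the TSS, a rule added after seeing the data, 114 promoters were open at D0 (24.4%) and 167 in iPSCs (35.7%), beside 30.1% and 36.8% of all genes. On that rule D6T− had the most (177, 37.8%, against 38.8% of all genes) and D9T− the fewest (108, 23.1%, against 27.6%). The peak and the dip also remained with 0.530 CPM as the lowest level for all libraries. D3 then had 184 open, D6T− 234, D9T− 147 and D12S+ 215. The share of all genes on this last count is not given here.

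Turnover between the ends of the course was larger among lincRNA promoters than among all genes. Of the 468, 100 were closed at D0 and open in iPSCs (21.4%, against 10.1% of all genes and 11.8% of protein-coding genes), and 35 were open at D0 and closed in iPSCs (7.48%, against 4.16% of all genes and 3.69% of protein-coding genes). Both libraries had 137 open and neither had 196. Windows missed at D0 for a weak signal would count as gains, which was not tested. With equal numbers of summits the gains were 101 (21.6%, against 12.5% of all genes) and the losses 30 (6.41%, against 2.90% of all genes). Restricted to summits within 250 bp of the TSS, gains numbered 83 (17.7%, against 9.81% of all genes and 12.8% of protein-coding genes). The 137 promoters open at both ends had a median log2 change of 0.30 in CPM, against 0.35 for all genes, and 98 of them were higher in iPSCs.

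**Figure D2:**
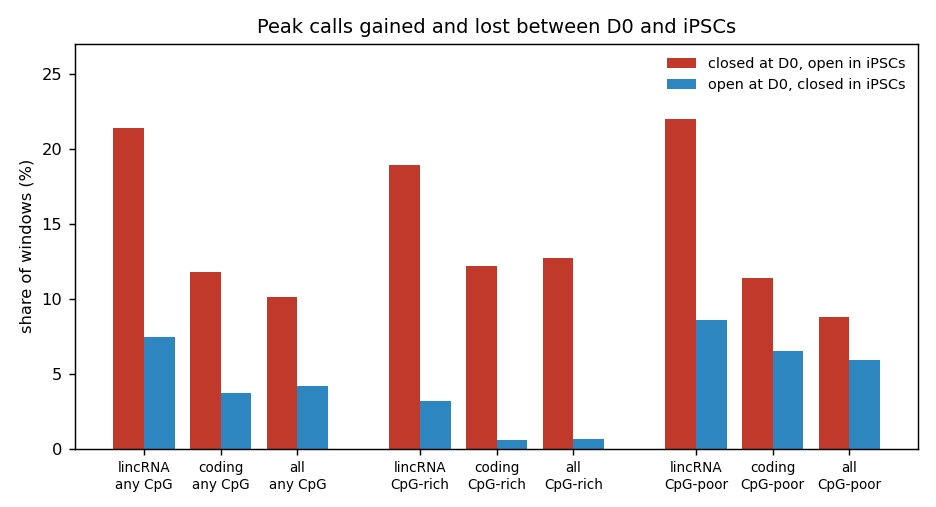
Share of windows (%, vertical axis) closed at D0 and open in iPSCs (red) or the reverse (blue), for lincRNA promoters, protein-coding genes and all genes, first for every window and then by CpG class. Gains among lincRNA promoters reach 21.4%, and the CpG-poor class gains 82 of 373 windows, where coding genes gain 11.4%.

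After D0, first openings were most frequent at D3 on the main calls. The D3 library also held more summits than D0 (124171 against 88163). First openings were not recomputed with equal numbers of summits, so their timing is not separated from that difference. Between D0 and D3, 70 promoters opened (15.0%, against 11.2% of all genes) and 9 closed (1.92%, against 1.70% of all genes). From D3 to D6T−, 38 opened (8.12%, against 3.62% of all genes) and 20 closed (4.27%, against 3.81% of all genes). From D6T− to D9T−, where tags and summits were fewer, 4 opened (0.855%, against 0.104% of all genes) and 108 closed (23.1%, against 14.9% of all genes), and from D9T− to D12S+ 80 opened (17.1%, against 10.4% of all genes) and 4 closed (0.855%, against 0.623% of all genes). These large steps into and out of D9T− cannot be told apart from its depth. From D12S+ to D16S+, 28 opened (5.98%, against 2.57% of all genes) and 23 closed (4.91%, against 2.30% of all genes). From D16S+ to iPSCs, 32 opened (6.84%, against 3.78% of all genes) and 23 closed (4.91%, against 2.37% of all genes). At both late steps the shares of lincRNA promoters that opened and that closed were larger than those of all genes. Their open windows also had lower levels (median 1.19 CPM, against 1.82 for all genes, at D12S+ and 0.790 against 0.978 in iPSCs). Whether calls near the limit of detection made the larger shares was not tested. First openings numbered 34 at D6T− (7.26%, against 3.16% of all genes) and 17 at D16S+ (3.63%, against 0.788% of all genes). Of the promoters that first opened at D3, 46 of 70 were open in iPSCs, as were 17 of these 34 and 14 of these 17. The same share was not computed for all genes, so these counts are not read as particular to lincRNA promoters.

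Open lincRNA promoters had lower levels than open protein-coding windows in every library. The median was 0.725 CPM at D0 (coding 0.820), 1.68 CPM at D6T− (coding 2.71) and 0.790 CPM in iPSCs (coding 1.02). The ratio of the medians was lowest at D6T− (0.621) and highest at D0 (0.885). Levels rose and fell in members and coding windows alike, and the D6T− library stood highest for both, so levels are read below within a library or beside that shift.

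The CpG content of the window went with its openness. CpG-rich promoters, with an observed over expected CpG ratio of at least 0.5 across the window, made up 95 of the 468 (20.3%), against 47.4% of protein-coding windows, and 373 were CpG-poor. CpG-rich lincRNA promoters were open at shares from 69.5% (D9T−) to 89.5% (D3 and D6T−). CpG-poor ones went from 27.6% at D0 (23.3 to 32.4) to 41.0% in iPSCs (36.1 to 46.1). CpG-poor protein-coding windows stood at 26.6% at D0 and 31.4% in iPSCs, and CpG-poor windows of all genes at 17.9% and 20.8%. The CpG-poor lincRNA promoters thus started at about the coding share and ended above it, outside the interval. In the CpG-rich class they stayed below coding windows at both ends, with 72.6% against 85.6% at D0 and 88.4% against 97.3% in iPSCs. The comparisons by CpG class were not repeated with equal numbers of summits. Gains from D0 to iPSCs came to 82 of the 373 CpG-poor lincRNA promoters (interval 18.1 to 26.5%), against 11.4% of CpG-poor coding windows, and to 18.9% of the CpG-rich ones (12.3 to 28.0), against 12.2%. Losses were 8.58% of the CpG-poor lincRNA promoters and 6.50% of CpG-poor coding windows. The median level of open CpG-rich lincRNA promoters was below that of coding windows in every library (0.922 against 1.09 CPM in iPSCs). In the CpG-poor class it was higher at D0 (0.694 against 0.662 CPM). It was equal in iPSCs (0.752 CPM) and at D6 siH3.3 (0.911 CPM), and lower in the other libraries (1.38 against 1.64 CPM at D6T−).

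**Figure D3:**
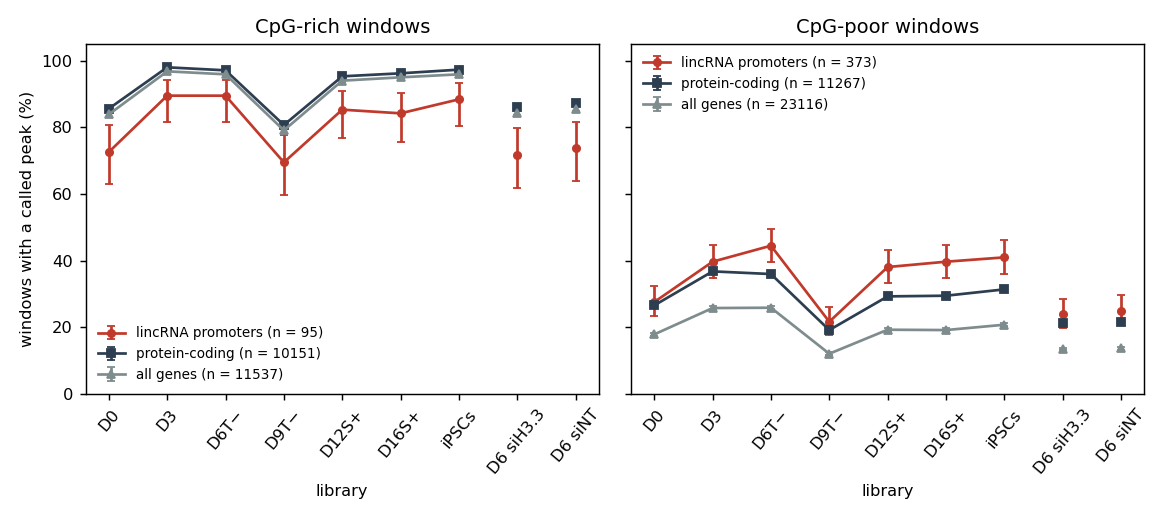
Share of windows with a called peak (%, vertical axis) in each library for CpG-rich (left) and CpG-poor (right) windows of lincRNA promoters, protein-coding genes and all genes, with 95% Wilson intervals. CpG-poor lincRNA promoters rise from 27.6% at D0 to 41.0% in iPSCs, above the 31.4% of CpG-poor coding windows.

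Summits lay less tightly on the TSS than in protein-coding genes. Between 54.7% (D0) and 65.6% (D6 siH3.3) of open lincRNA promoters had their strongest summit within 250 bp of the TSS, against 71.7% to 77.3% of open coding windows. Positions are given from the TSS, negative upstream, and the median was −27 bp in iPSCs to −64 bp at D6 siNT. CpG-poor promoters were the more spread at D0, where the median distance was 322 bp, against 155 bp for CpG-rich ones. In iPSCs the medians were 184 and 133 bp. In no library of the time course was the share open higher where the nearest protein-coding promoter was open. At D0, 36.3% were open where that neighbour was open and 37.6% where it was closed, and in iPSCs 48.8% and 55.5%. The siRNA libraries had the reverse order, with 35.2% and 30.9% at D6 siH3.3. Of the 194 promoters at 5 to 20 kb from a coding TSS 49.0% were open in iPSCs (42.0 to 56.0), and of the 58 beyond 100 kb 48.3% (35.9 to 60.8). The order of these classes varied, with 37.1% and 29.3% open at D0, 45.9% and 53.4% at D3 and 41.8% and 55.2% at D12S+, and their intervals overlapped in each.

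A core of 107 lincRNA promoters was open in all 7 time-course libraries (22.9%, against 30.4% of all genes), and 103 of these were open in all 9. Most of its windows were CpG-rich, 59 of 107 (55.1%, 45.7 to 64.2). Of the 7 named snoRNA host genes, whose introns carry the guide RNAs for ribosomal RNA modification, 6 were open in all 9 libraries. Snhg4 lacked a call only at D0. Of these 7 hosts, 5 were CpG-rich, and CpG class and host role were not separated. The share of all genes open in all 9 libraries is not given here. The hosts were grouped with the values in view, so their count describes these genes and tests nothing. Along the time course, whose 7 libraries are given from D0 to iPSCs here and below, Snhg5 had 1.55, 3.41, 6.22, 2.04, 4.31, 3.35 and 1.66 CPM. It was about as high in iPSCs as at D0 and highest at D6T−, where all levels were high. Snhg15 (annotated as Gm11974) followed the same course, from 1.26 CPM at D0 to 4.25 at D6T− and 1.43 in iPSCs. Snhg7 had 1.42 CPM at D0, 4.02 at D6T− and 0.790 in iPSCs, and was among the 5 lincRNA promoters with the largest fall of level between D0 and iPSCs.

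The 10 highest levels were those of Snhg5 and of 9 lincRNAs with systematic names, all at D6T−. Gm16899 on chromosome 1, 231340 bp from the nearest protein-coding TSS, had 1.95, 6.22, 10.8, 6.58, 5.51, 6.94 and 2.93 CPM along the time course. Its summits lay at −220 to −354 bp. Gm10492 came next, with 2.02 CPM at D0, 10.1 at D6T− and 3.01 in iPSCs, although its window was CpG-poor (observed over expected 0.320). Gm17422 followed with 8.56 CPM at D6T−, from a summit at −2087 bp outside the window, and had 1.92 CPM inside it and 0.602 CPM in iPSCs. Gm10433, 5430416N02Rik and 2610206C17Rik were CpG-rich and had 7.99, 7.90 and 6.22 CPM at D6T−, and Gm16046, inside Tcte2, had 7.81 CPM. The pair 9430037G07Rik and Gm17683, which start 140 bp apart on opposite strands, shared each of its peaks (6.08 CPM at D6T−). In iPSCs these members other than Gm17422 ranged from 1.17 CPM (the pair) to 3.01 CPM (Gm10492), with Gm16046 at 2.29 CPM, above the upper quartile of open lincRNA promoters, 1.05 CPM.

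Among lincRNAs tied to pluripotency by name or known role, 10 were measured, and more had a call in iPSCs than at D0. Along the time course 4, 6, 7, 2, 6, 7 and 8 of the 10 had a call, with the 2 at D9T−, the library with the fewest tags. The share open also rose from D0 to iPSCs over all 468 promoters (36.8% to 50.6%) and over all genes (39.9% to 45.8%). The named groups were assembled with the values in view, so the counts among the 10 describe these genes and test nothing. Oip5os1, also known as Cyrano, a conserved lincRNA reported in embryonic stem cell upkeep, was open throughout, with 0.662, 1.19, 2.62, 1.14, 2.61, 1.79 and 1.13 CPM. Its summits lay between −11 and 98 bp in the time course. Platr22 (annotated as Gm16880, 71310 bp from the TSS of Zfp281) was open in all 9, with 1.23 CPM at D0 and 1.02 in iPSCs, but its strongest summit moved. It lay at 337, 48, 303 and 277 bp from D0 to D9T− and then at −31, −30 and −5 bp in D12S+, D16S+ and iPSCs.

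At Platr14 (annotated as 4930500J02Rik) the summit moved as well. Its window was closed at D0 and D9T− and open elsewhere, with 0.959 CPM at D3, 2.52 CPM at D6T−, and 0.681, 0.614 and 0.828 CPM in the last 3 libraries of the course. Up to D12S+ the summit lay 1029 to 1117 bp downstream of the TSS, and thus outside the window itself. At D16S+ it lay at −15 bp and in iPSCs at 5 bp. On summits inside the window, Platr14 was open in these last libraries only. Platr4 (annotated as C430002E04Rik) was open in iPSCs alone (0.790 CPM), 28 bp downstream of its TSS. It was 1 of 9 lincRNA promoters open in iPSCs and in no other library of the time course (1.92%, against 1.14% of all genes). Gm16986 was the highest, with 1.05 CPM, and 7 of these 9 had the summit within 250 bp of the TSS.

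The other lincRNAs of this group varied. Platr9 (annotated as 2410114N07Rik) was open at D6T− (0.608 CPM), D12S+ (0.852), D16S+ (0.661) and in iPSCs (0.828). Platr7 (annotated as C330046G13Rik) was called at D16S+ alone (1.28 CPM), with the summit at −1358 bp and none inside the window. Tunar (annotated as 2810011L19Rik), which takes part in neural differentiation and stem cell maintenance, was open at D0, D3, D12S+, D16S+ and in iPSCs at 0.504 to 0.708 CPM, near the lowest level called. Lncenc1 (annotated as Gm11019) was open in 6 of the 7 time-course libraries at 0.640 to 0.982 CPM, with a summit inside the window only at D0, D6T− and D16S+. Sox2ot, whose locus holds Sox2, had a single call (0.467 CPM at D6T−). Gm17580 had a call at D3 (0.595 CPM), at D6T− and in iPSCs (0.489 CPM), where the summit lay at 484 bp. Whether neighbouring time points differed at these genes was not tested.

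**Figure D4:**
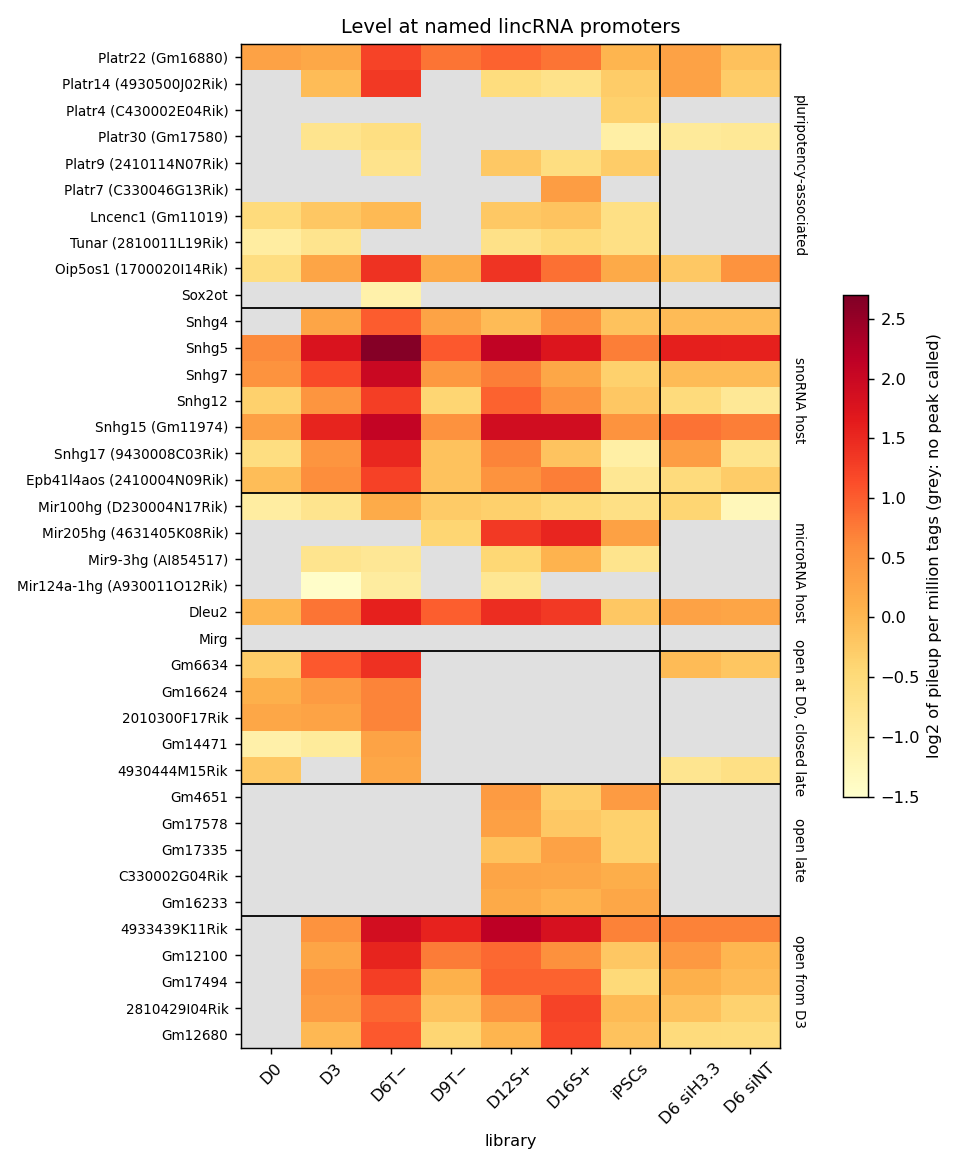
Level of named lincRNA promoters (rows) in each library (columns), coloured by log2 of CPM, with grey where no peak was called. Host genes of snoRNAs are coloured almost throughout, while the groups open at D0 or open late are grey on opposite sides of D9T−.

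Late opening was rare. The promoters closed from D0 to D9T− and open at D12S+, D16S+ and in iPSCs numbered 8 (1.71%, 0.869 to 3.34, against 0.459% of all genes), and none of the 8 was CpG-rich, which allows up to 32.4% by the Wilson interval. C330002G04Rik, 65373 bp from the TSS of Klf9, had 1.19 CPM at D12S+, 1.18 at D16S+ and 1.09 in iPSCs, with summits at −156 to −185 bp. Gm16233 had 1.14, 1.04 and 1.17 CPM, Gm4651 had 1.31, 0.803 and 1.32 CPM, Gm17578 had 1.25, 0.850 and 0.790 CPM and Gm17335 had 0.908, 1.23 and 0.790 CPM in the same order. The iPSC level of Gm17578 came from a summit at 1027 bp, and inside its window it had 0.640 CPM. All lay above 0.530 CPM, the lowest level called at D9T−. Whether D9T− would have called peaks of these levels was not tested. With equal numbers of summits 14 promoters held the pattern, and without those inside a coding gene 5. Mir205hg, host of the epithelial microRNA miR-205, came close to this pattern: it was closed from D0 to D6T− and then had 0.757, 2.50, 2.88 and 1.24 CPM. Its summits lay at −439 to −485 bp, and none within 250 bp of the annotated TSS.

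Other microRNA hosts behaved differently. Dleu2, host of miR-15a and miR-16-1, was open in all 9 libraries, with 1.01 CPM at D0, 2.99 at D6T−, 2.73 at D12S+ and 0.865 in iPSCs. These levels came from summits at 1026 to 1369 bp, outside the window, and the strongest summits inside it had 0.662, 1.96, 1.25 and 0.790 CPM in the same libraries. Mir100hg (annotated as D230004N17Rik) was open in all 9 at 0.413 to 1.12 CPM. Mir9-3hg (annotated as AI854517), a host of the neural microRNA miR-9, was closed at D0 and open at D3 (0.595 CPM), D6T−, D12S+, D16S+ (1.04) and in iPSCs (0.602). Inside its window the strongest summit lay at −66 bp at D3. It lay at −804, −613, −572 and −832 bp in the later open libraries, where none lay within 250 bp of the TSS. Mirg, of the imprinted Dlk1 and Dio3 cluster, had no call in any library. Meg3, the maternally expressed lincRNA of that cluster, was open at D0 (0.410 CPM), D3 (0.628), D6T− (0.795), D12S+ (0.625) and D16S+ (0.945) and had no call in iPSCs, whose lowest level called was 0.376 CPM. Airn, the imprinted antisense RNA that starts inside Igf2r, was open from D0 (0.441 CPM) to D12S+ (0.738), highest at D6T− (1.54), and had no call at D16S+ and in iPSCs. Rmst and Dlx1as, known from the developing brain, were closed in all 9.

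Further lincRNAs with given names each had a course of their own. Carmn (annotated as Gm16908), known from smooth and cardiac muscle, had 1.07, 1.95, 2.90, 1.21, 0.795, 0.897 and 0.752 CPM and was thus called throughout, but its summit lay outside the window at D3, D6T−, D9T−, D16S+ and in iPSCs, with levels inside it of 1.22, 1.36 and 0.527 CPM at D3, at D6T− and in iPSCs and none at D9T− and D16S+. Trp53cor1 (annotated as Gm16197), a target of p53, had 0.725, 1.36 and 2.01 CPM up to D6T−, no call at D9T−, and 1.59, 1.84 and 0.752 CPM after that. Pvt1, a neighbour of Myc, had 0.441, 0.959, 1.82, 0.833, 0.625 and 0.850 CPM from D0 to D16S+ and no call in iPSCs. The D0 summit lay at 1214 bp, outside the window, and the others within 66 bp of the TSS. It was called at D6 siNT (0.551 CPM) and not at D6 siH3.3. Morrbid (annotated as Gm14005), which controls the lifespan of myeloid cells, had 0.725 CPM at D0, 2.99 CPM at D6T− and 0.564 CPM in iPSCs. Its summit lay at −92 and −48 bp in the first 2 of these and at 986 bp in iPSCs, where none lay within 250 bp of the TSS. Miat was called at D3 (0.695 CPM), D6T− (0.701), D9T− (1.06) and in iPSCs (0.414).

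The reverse of late opening, open at D0 and closed at D12S+, D16S+ and in iPSCs, was held by 18 promoters (3.85%, against 2.76% of all genes). Gm6634, 799678 bp from the nearest coding TSS, had 0.820 CPM at D0, 2.05 at D3 and 2.66 at D6T− and no call after that, with the summit at −19 to −57 bp. It was also open at D6 siH3.3 (0.964 CPM) and D6 siNT (0.872 CPM). Gm16624 (1.07, 1.32 and 1.59 CPM) and 2010300F17Rik (1.17, 1.22 and 1.59 CPM) had the same course from D0 to D6T− and were closed in both siRNA libraries. None of the 18 was CpG-rich (up to 17.6%), and 13 of them started inside a protein-coding gene (72.2%, 49.1 to 87.5), against 29.1% of all 468, so that an element of the host gene and a promoter of the lincRNA cannot be told apart there. With summits within 250 bp of the TSS alone, 8 promoters held the pattern, and without those inside a coding gene, 5.

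Opening that began at D3 and lasted, closed at D0 and open in every later library of the time course, was found at 18 promoters (3.85%, 2.45 to 6.00, against 2.08% of all genes). The highest was 4933439K11Rik, with 1.42, 3.65, 2.95, 4.43, 3.54 and 1.62 CPM from D3 to iPSCs and its summits between −38 and 34 bp. Gm12100 (1.19 CPM at D3, 2.90 at D6T− and 0.865 in iPSCs) had a low CpG ratio (0.0706), and Gm17494 (1.39, 2.43 and 0.715 CPM) a high one (0.942). Openings seen at D3 and D6T− and in neither D0 nor the late cells numbered 7 (1.50%, against 1.09% of all genes). The highest of these were 6430562O15Rik (0.562 CPM at D3 and 1.36 at D6T−) and Gm17308 (0.529 and 1.36 CPM). With equal numbers of summits only 1 promoter had this pattern. No peak was called in any of the 9 libraries for 149 promoters (31.8%, against 42.9% of all genes), of which 5 were CpG-rich and 66 lay inside a protein-coding gene.

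Among promoters open at both ends, the largest rises from D0 to iPSCs were those of E130018N17Rik and Gm14235, neighbours on 1 strand that shared a peak (0.504 to 1.96 CPM, log2 change 1.96), A930006K02Rik (0.441 to 1.66 CPM, 1.91), 4833407H14Rik (0.473 to 1.77 CPM, 1.90) and 4930461G14Rik (0.410 to 1.32 CPM, 1.68). The shared iPSC summit lay at −131 bp from E130018N17Rik and at −1111 bp from Gm14235, which had a summit inside its own window at D0 alone. The D0 summit of 4930461G14Rik lay at −1111 bp, outside the window, with none inside it. At 4833407H14Rik the D0 summit lay 867 bp downstream and the iPSC summit at −184 bp. The largest fall was that of Gm13684 in Itgav, from 1.77 to 0.527 CPM (log2 change −1.75), where the D0 summit lay outside the window and the strongest one inside it had 0.883 CPM. Of the 137 promoters, 13 rose by over 2-fold and 3 fell by over 2-fold, and in all genes 1353 and 95 of 12387 did.

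Sequence motifs were counted in the 300 bases at the TSS of each promoter. The GC box was present in 26.3% of lincRNA promoters (31.5% of all promoters), in 53.3% of those open in all 7 libraries and in 7.38% of those never open. The always open and never open promoters also differed in CpG class, with 55.1% and 3.36% CpG-rich. The GC box itself holds a CpG, and was in 61.1% of CpG-rich and 17.4% of CpG-poor lincRNA promoters. Motif and CpG class were not separated here. The E-box, which also holds a CpG, was in 9.19% (6.89 to 12.1, against 6.28% of all promoters) and in 15.9% of those always open (10.2 to 24.0). The AP-1 site was in 9.83% (7.45 to 12.9, against 7.53% of all) and the octamer in 1.71% (2.27% of all). Of the 18 promoters open at D0 and closed late, 2 held the AP-1 site (11.1%, 3.10 to 32.8). So did 2 of the 8 that opened late and 10.1% of those never open. Shares were also taken around the summits, which need not lie at the TSS. In the 300 bases centred on the strongest summit, 17.2% of 319 open lincRNA promoters held the AP-1 site (13.5 to 21.8), against 9.85% of open windows of all genes, and 21.0% (16.2 to 26.7) against 17.5% among CpG-poor windows, within the interval. The octamer was in 3.76% (2.16 to 6.46), against 1.52% of all genes, and in 4.37% of the CpG-poor ones (2.39 to 7.85), against 1.78%. A match of letters does not say that a factor was bound.

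Few lincRNA promoters differed between the siRNA libraries. At D6 siH3.3, 157 were open (33.5%, 29.4 to 37.9, against 37.1% of all genes), and at D6 siNT 163 (34.8%, 30.7 to 39.3, against 37.7% of all genes). Open in both were 148, with 78 higher and 70 lower in D6 siH3.3 and a median log2 ratio of 0.00 (quartiles −0.21 and 0.29). The promoters open at D6 siH3.3 and not at D6 siNT numbered 9 (1.92%, against 2.15% of all genes), and those open at D6 siNT and not at D6 siH3.3 numbered 15 (3.21%, against 2.75% of all genes). Both shares were near those of all genes. The calls lay close to the limit of detection, with a median pileup of 10 tags for the former and 14 for the latter. The strongest of the former were 6530411M01Rik (0.696 CPM) and Gm16684 (0.643 CPM), and of the latter 4833412C05Rik (1.06 CPM) and Gm17632 (0.734 CPM, with the summit at −1113 bp, outside the window). All 15 of the latter and 8 of the 9 former were also open at D6T−. The D6T− library itself had 251 open, of which 163 were open at D6 siNT. From D6T− to D6 siNT, 88 promoters closed (18.8%, against 11.7% of all genes) and 0 opened (against 0.156% of all genes), with a median log2 ratio of −1.35 at those open in both (−1.40 for coding windows). Both libraries are labelled as Thy-1-negative cells of day 6, and siRNA transfection, culture and summit number (154574 and 51919) differ between them and cannot be told apart.

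Levels differed by over 2-fold between the siRNA libraries at 5 of the 148 promoters (3.38%, against 0.950% of the 12109 windows of all genes open in both). These 5 were singled out by their values. Gm17422 had 60 tags at D6 siH3.3 (exact Poisson interval 45.8 to 77.2) and 19 at D6 siNT (11.4 to 29.7), which is 3.21 against 0.872 CPM, and 8.56 CPM at D6T−. The strong summits of D6 siH3.3 and D6T− lay at −2089 and −2087 bp, in peaks that reached into the window, whereas the D6 siNT summit lay at 84 bp. On summits inside the window the levels were 0.750 CPM at D6 siH3.3 and 0.872 CPM at D6 siNT, and the 2-fold difference was absent. Gm17717 (1.07 against 0.413 CPM, 2.59-fold, counting interval 1.13 to 6.47), Snhg17 (annotated as 9430008C03Rik; 1.29 against 0.597 CPM, 2.15-fold, 1.05 to 4.61) and 4930412L05Rik (22 against 12 tags, 2.14-fold, 1.01 to 4.74) were higher in D6 siH3.3, with lower bounds near 1. At 4930412L05Rik the summits differed (−275 bp in D6 siH3.3 and 98 bp in D6 siNT), and within 250 bp of the TSS it had 11 against 12 tags (0.589 against 0.551 CPM). Gm16988 was lower, with 15 tags at D6 siH3.3 (8.40 to 24.7) and 40 at D6 siNT (28.6 to 54.5), 2.29-fold (1.24 to 4.45) and with both summits within 109 bp of the TSS. It had been open at D0 (0.725 CPM), D3 (1.32), D6T− (3.83), D9T− (1.97) and D12S+ (0.908) and was closed at D16S+ and in iPSCs. Counting intervals hold the counting of tags and not the variation between cultures.

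**Figure D5:**
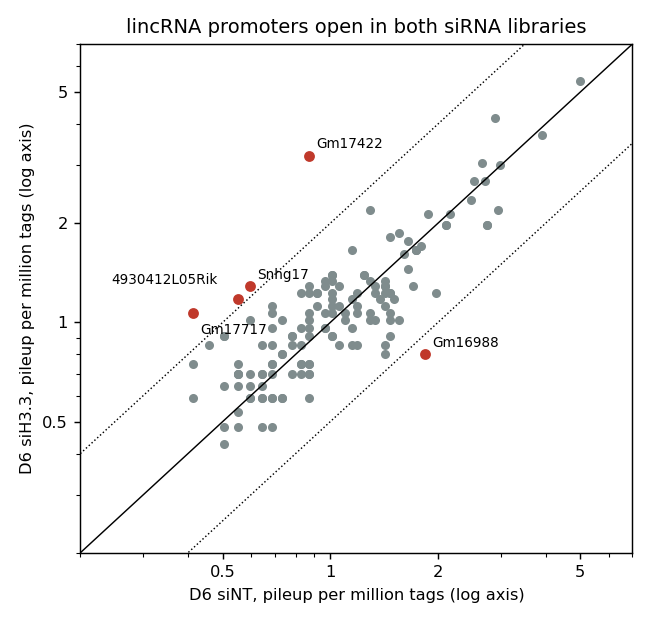
Level (CPM) at 148 lincRNA promoters open in both siRNA libraries, D6 siNT (horizontal, log axis) against D6 siH3.3 (vertical, log axis). The solid line is equality, the dotted lines are 2-fold, and the 5 promoters beyond them are red. Gm17422 lies farthest out with 3.21 against 0.872 CPM, and Gm16988 is the only one below.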

How the data were processed

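The authors mapped ATAC-Seq reads (51 bp) to mm9 with STAR, removed duplicates with Picard and, per the file headers, ran MACS2 (2.1.0.20151222) for peaks with no control and no local background, at a q-value cutoff of 0.05, with tags extended to 200 bp. The deposited pileup is a signal not scaled for depth. The deposited fold enrichment is a ratio to the genome background. The deposited significance columns hold −log10 p-values and −log10 q-values, and the latter ranked the summits where equal numbers were kept. Genes, TSSs and sequences came from GENCODE vM1 and the NCBIM37 genome (both mm9), and current names from RefSeq (GRCm38.p6) by symbol or a single synonym on the same chromosome. Windows, levels (pileup per 1000000 total tags), CpG ratios and motifs were computed in Python 3.11.15 with numpy 2.4.6, scipy 1.17.1, pysam 0.24.0 and matplotlib 3.10.9. Functions were tested on simulated data (9 of 9 tests passed). The members, the lists and the rule for naming genes were chosen with earlier results of these data known. Named were lincRNAs with known or given names, the 10 with the highest level, the 5 highest of each presence pattern, and the 5 largest rises and falls from D0 to iPSCs. Genes outside it (the 5 past 2-fold between siRNA libraries, Gm16986) were chosen after their values were seen. With 1 library per condition no test was run, and intervals are 95% Wilson, exact Poisson or exact binomial and cover sampling or counting error only. Repeat content was not analysed here.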

Additional observations from a re-analysis of the deposited data

How the results depend on the processing

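Values were recomputed under 18 other settings, of which 3 were chosen after seeing the data (leaving out members that RefSeq lists as protein-coding, leaving out members inside a coding gene, and summits within 250 bp of the TSS). No count moved by over 1.5 times with windows of 500 bp, a distance of 10 kb (366 members), distance to gene 5′ ends (548), every lincRNA transcript start, summits inside the window, overlapping windows counted once, or without members that RefSeq lists as coding (454). With equal numbers of summits, D3 had 141 open, D6T− 145, the late pattern 14, the D3 and D6T− pattern 1 and D6 siH3.3 alone 15. D6 siH3.3 alone also had 14 with windows of 2 kb and 14 with one lowest CPM (0.530) for all libraries. With summits above the median q-value rank of each library, D9T− had 94 open, D6 siNT 104, all 7 libraries 64 and D6 siH3.3 alone 15. Without members inside a coding gene (332 left), 83 were never open, 5 were open at D0 and closed late, 5 opened late, 4 were open at D3 and D6T− and 9 at D6 siNT alone, so these fell partly because fewer were counted. With summits within 250 bp, D0 had 114, all 7 libraries 62, the D0 pattern 8 and D6 siH3.3 alone 20. CpG-rich shares exceeded CpG-poor shares in all 9 libraries under each of the 3 other definitions. With CpG measured in 300 bp, CpG-rich shares were 61.6% at D0, 81.5% at D3, 81.5% at D6T−, 57.5% at D9T− and 61.6% at D6 siH3.3, and CpG-poor shares 34.8% at D16S+ and 35.7% in iPSCs. With a threshold of 0.6, CpG-poor shares were 33.6, 45.5, 50.2, 27.7, 44.1, 45.3 and 46.4% from D0 to iPSCs, 29.6% at D6 siH3.3 and 30.8% at D6 siNT. With 0.4, CpG-rich shares were 62.3% at D0 and 58.3% at D9T−, and CpG-poor shares 34.1% at D3, 32.5% at D12S+, 33.8% at D16S+, 34.4% in iPSCs, 18.6% at D6 siH3.3 and 19.9% at D6 siNT. AP-1 sites were in 17.2% of open promoters around the summit and in 9.72% at the TSS. Ratios of median levels to coding windows moved by less than 1.5 times with fold enrichment in place of pileup. With no local background, fold enrichment follows the pileup within a library, so little change was fixed in advance. No paired analysis was possible because each condition had 1 library.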
